A study of Mus musculus with 6 samples.

Results

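Tuft cells are chemosensory epithelial cells, and the thymic medulla holds mimetic epithelial cells that carry the tuft programme. The 31 genes described here are effector genes of that programme, chosen by name from the series table, with the tuft regulator Pou2f3 left out of the set. All 31 were found among the 51810 genes of that table and the 55385 genes of the count files. By role they comprise 5 receptors, 7 genes of taste-type signal transduction, 7 effector genes, 4 genes of the cytoskeleton, adhesion and neuronal type, 7 genes of immune-type signalling and 1 nuclear regulator.

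The libraries were bulk mRNA sequencing of sorted mature medullary thymic epithelial cells, labelled mTEChi, with 75000 cells per sample from mice aged 4 to 5 weeks. The WT group (3 libraries, labelled P53-NoCre, genotype P53-WT) carried no Cre, and the cKO group (3 libraries, labelled P53-cKO) had a conditional deletion of Trp53, the gene of the transcription factor p53. The labels name neither the Cre driver nor the strain, and controls that carry Cre beside an intact Trp53 were not among the groups. Whether the libraries of a group are separate animals is not stated in the labels. The p-values therefore measure only the variation among these samples, part of which may be technical.

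In a tuft cell, ligands at a taste-type receptor act through the G protein gustducin and phospholipase C to release stored calcium, which opens the cation channel TRPM5. The cell then releases the cytokine interleukin 25, acetylcholine, cysteinyl leukotrienes and prostaglandins, which act on nearby immune cells and nerves. Pou2f3, a POU-domain transcription factor, is required for tuft cells in the thymus and in other tissues.

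Library totals lay between 45457892 and 50128045 counts. CPM values are counts relative to the TMM-scaled library size. A level of 3 counts was 0.0598 to 0.0660 CPM of the library total. The targeted gene matched the labels: Trp53 had 4837 to 5351 counts in the WT libraries and 361 to 386 in the cKO libraries (log2 fold change or log2FC −3.81, SE 0.0999, edgeR adjusted p = 5.76e-10). Markers of mature medullary cells were high in every library, with Aire between 822 and 1417 CPM. RNA of marker genes of other cells was present too: summed levels were 562 to 983 CPM for 12 myeloid genes, 904 to 1018 CPM for 10 mast cell and basophil genes, of which Hdc alone had 746 to 862 CPM, and 87.4 to 170 CPM for 11 thymocyte genes. Which cells this RNA came from was not tested.

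Promoter sequence was available for 28 of the 31 members in the RefSeq table of build GRCm38.p6, as windows from 250 bases before to 50 bases after the start. Il25, Lrmp and Alox5ap were without an entry. A pair of motifs was looked for on both strands: the octamer ATGCAAAT, which POU-domain factors bind, and the p53 half-site, because p53 is the deleted factor. The motifs were searched separately, and no member held both. The octamer was found in 2 members, Sucnr1 and Hpgds, against 1.97% of all 27025 genes with a window. The p53 half-site was found in 3 members, Gng13, Chat and Matk, against 9.55% of all genes with a window. A match is a description of the letters and is not evidence of binding. The 250 bases before the start are shown for 4 of these genes, an effector enzyme or receptor for the octamer and a transduction or effector gene for the half-site, 5′ to 3′ on the gene's strand, with the match in capitals.
Sucnr1, chr3:60081619-60081868, plus strand: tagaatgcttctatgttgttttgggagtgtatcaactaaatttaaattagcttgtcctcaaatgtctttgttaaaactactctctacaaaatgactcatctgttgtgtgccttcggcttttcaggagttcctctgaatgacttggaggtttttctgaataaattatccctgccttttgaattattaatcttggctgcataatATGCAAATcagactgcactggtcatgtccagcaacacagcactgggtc
Hpgds, chr6:65144731-65144980, minus strand: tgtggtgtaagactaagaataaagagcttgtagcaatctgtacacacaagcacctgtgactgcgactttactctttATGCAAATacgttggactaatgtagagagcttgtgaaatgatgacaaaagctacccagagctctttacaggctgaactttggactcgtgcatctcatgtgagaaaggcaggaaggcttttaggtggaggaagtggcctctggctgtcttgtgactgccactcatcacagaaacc
Gng13, chr17:25716922-25717171, plus strand: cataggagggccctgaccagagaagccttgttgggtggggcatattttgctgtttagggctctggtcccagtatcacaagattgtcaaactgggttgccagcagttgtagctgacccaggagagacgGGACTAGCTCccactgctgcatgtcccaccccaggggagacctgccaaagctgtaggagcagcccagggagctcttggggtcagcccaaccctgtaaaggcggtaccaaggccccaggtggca
Chat, chr14:32465910-32466159, minus strand: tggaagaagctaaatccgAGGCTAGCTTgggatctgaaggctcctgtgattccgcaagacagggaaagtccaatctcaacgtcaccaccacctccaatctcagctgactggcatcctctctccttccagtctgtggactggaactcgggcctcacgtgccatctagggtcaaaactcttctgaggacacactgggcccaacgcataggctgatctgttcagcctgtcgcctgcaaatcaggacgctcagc
The octamer began 48 bases before the start in Sucnr1 and 174 bases before it in Hpgds. The half-site began 123 bases before the start in Gng13, 232 in Chat and 240 in Matk. Gng13 and Matk each also had a window at another start, and that window held no half-site.

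All 31 tuft genes were expressed in all 6 libraries, with 32 to 4793 counts per gene and library, and all passed the filter on low counts. On the per-length scale of the deposited TPM values (counts per kilobase scaled to a fixed sum), mean levels over 6 libraries went from 1.83 TPM for Cd300lf to 54.0 TPM for Avil. Avil, the gene of the actin-binding protein advillin, had 54.0 ± 12.8 TPM in the WT group and 54.0 ± 22 TPM in the cKO group (mean ± SD of 3 libraries each). Next came Gng13, the gustducin gamma subunit, with a mean of 41.3 TPM, Rgs13, a regulator of G protein signalling, with 31.2 TPM, and Gnat3, the gustducin alpha subunit, with 27.4 TPM. The lowest after Cd300lf were Matk, a kinase gene, with 2.05 TPM and Chat, the acetylcholine synthesis enzyme, with 2.15 TPM. For all 30 neighbouring pairs in this order the ranges over the 6 libraries overlapped, so the exact order is not fixed by these data. The level of Gng13 is uncertain, because 51.6% of its exon bases are shared with exons of Chtf18 (568 to 925 counts per library) and the reads were counted without regard to strand. Smaller shares held for other members. Among them were Sh2d7 with 7.45% (Cib2, 312 to 414 counts), Avil with 4.86% (Tsfm, 844 to 1264 counts) and Trpm5 with 3.44% (Tssc4, 1107 to 1294 counts).

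**Figure D1:**
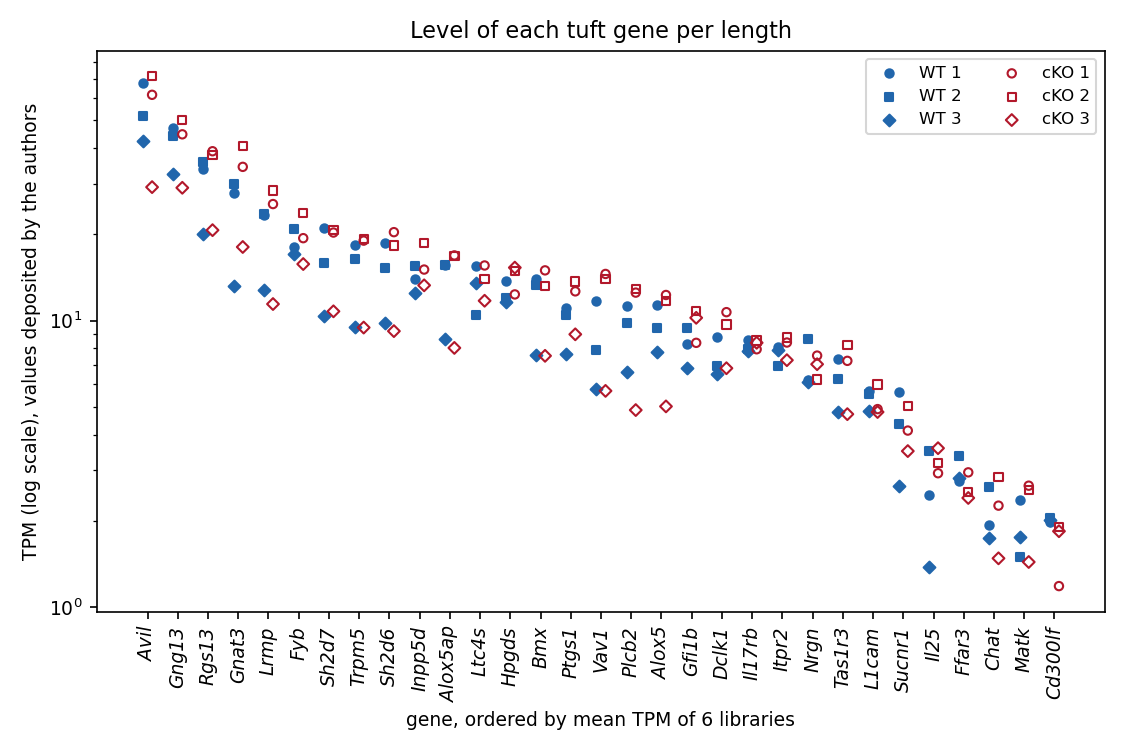
Level of each of the 31 tuft genes in each library, in deposited TPM on a log scale, ordered by the mean over 6 libraries. WT libraries are filled and cKO libraries open, and the marker shape gives the library number. Mean levels run from 54.0 TPM for Avil to 1.83 TPM for Cd300lf, and the WT and cKO ranges overlap for 30 of the 31 genes.

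No tuft gene differed between cKO and WT past the threshold. With edgeR's quasi-likelihood test, 0 of 31 members passed an adjusted p of 0.05 against 0.0596% of the 28543 genes tested (0.0245% higher and 0.035% lower in cKO), and 0 members had an unadjusted p under 0.05 against 8.51% of all genes. DESeq2 on the same counts called 0 of 31 members against 0.783% of the genes it tested, and limma on log2(TPM + 1) called 0 of 31 against 0.00278%. Each also had 0 members at an unadjusted p under 0.05. The smallest adjusted p among the members was 0.680. The log2 fold changes of cKO over WT lay between −0.32 (Cd300lf) and 0.41 (Vav1), 23 above 0 and 8 below, with a median of 0.08 beside −0.01 for all genes tested. The sign of that median was not stable: it was −0.09 without WT library 3, −0.01 without cKO library 1, −0.03 without cKO library 2 and 0.26 without cKO library 3.

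A difference that misses the threshold does not show that levels were equal. The intervals state what sizes remained possible under the fit without a replicate block. The 95% interval of the fold change lay within 2-fold in either direction for 26 members and within 1.5-fold for 11 of them. It reached past 2-fold for 5 members, Gnat3, Plcb2, Lrmp, Il25 and Vav1. The standard error of the log2 fold change ranged from 0.0929 for Itpr2 to 0.420 for Lrmp, with a median of 0.246. Low levels shared by library 3 of both genotypes, described below, count as spread in this fit. With replicate number as a block, the SE was 0.114 for Gnat3, 0.129 for Plcb2, 0.0983 for Lrmp and 0.137 for Vav1. Without the block it was 0.403, 0.410, 0.420 and 0.408. For Il25 it was 0.341 with the block and 0.348 without. The labels do not say that equal replicate numbers mark pairs. Because these are bulk samples, fewer tuft cells in a sample and less tuft RNA per cell cannot be told apart.

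**Figure D2:**
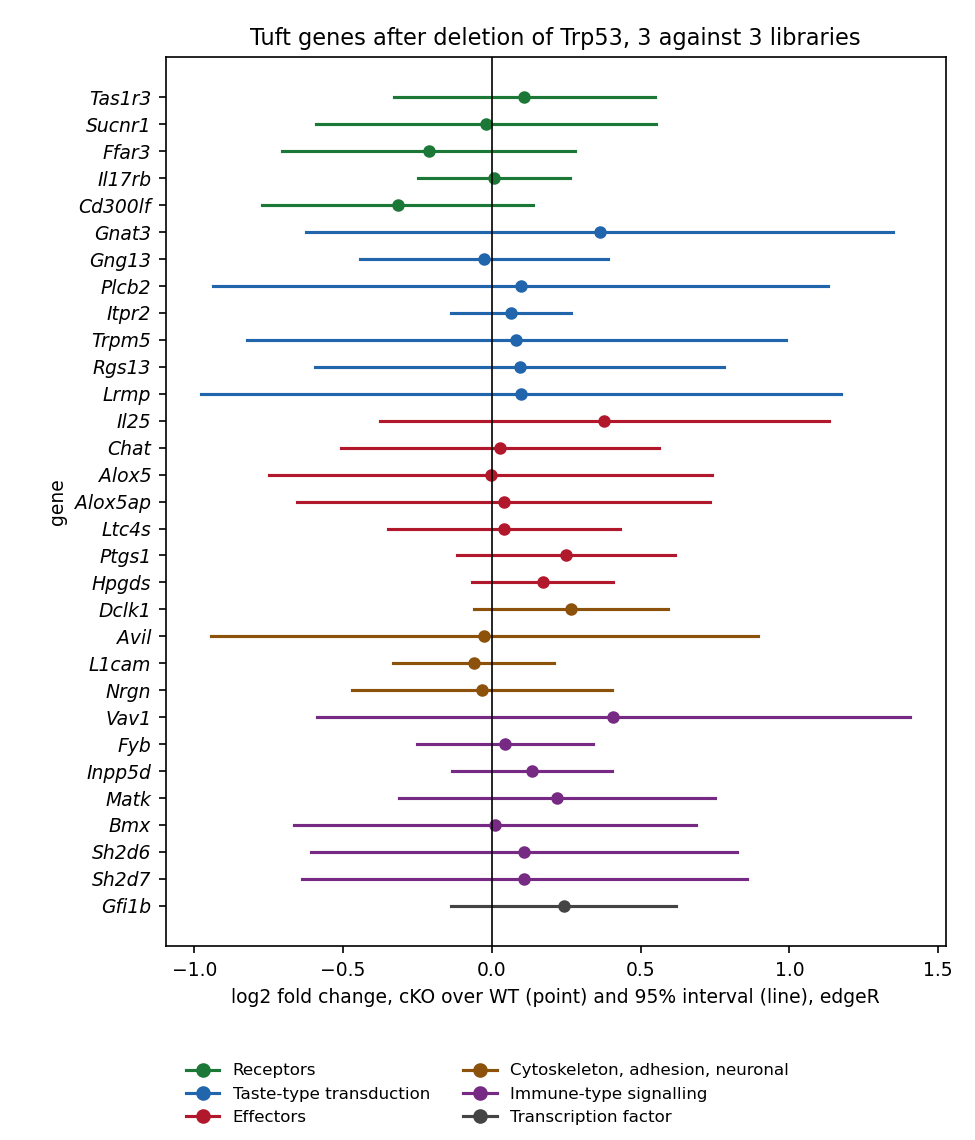
Log2 fold change of cKO over WT for each tuft gene (point) with its 95% interval (line), 3 against 3 libraries, coloured by role. Every interval crosses 0, from Cd300lf at −0.32 to Vav1 at 0.41, and the widest belong to Lrmp, Plcb2, Vav1 and Gnat3.

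Summed over the 31 members, the WT libraries 1 to 3 held 720, 691 and 524 CPM and the cKO libraries 1 to 3 held 758, 807 and 506 CPM. The groups overlapped, and in each the third library was the lowest. The means were 645 ± 105 CPM for WT and 690 ± 161 CPM for cKO (mean ± SD of 3 libraries each), a log2 ratio of 0.10. Without WT library 3 the log2 ratio was −0.03, without cKO library 2 it was −0.03, and without cKO library 3 it was 0.28.

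Among the receptors, levels did not move together. Il17rb, a subunit of the receptor for interleukin 25 (ENSMUSG00000015966, chr14:29996135-30008896), was the steadiest of all 31 members. Its levels were 13.6, 13.4 and 13.0 CPM in the WT libraries and 12.8, 13.6 and 13.8 CPM in the cKO libraries, a highest-to-lowest ratio of 1.08 (log2FC 0.01, SE 0.118, adjusted p = 0.994). Il17rb shares 3.80% of its exon bases with Actr8 (2611 to 2870 counts per library), so part of its reads could belong to that gene. Tas1r3, a subunit of the sweet and umami taste receptors (ENSMUSG00000029072, chr4:155859268-155863362), stood at 11.1, 9.98 and 7.55 CPM in WT and at 11.1, 12.5 and 7.40 CPM in cKO. Its libraries 3 were the lowest of each group and the groups overlapped (log2FC 0.11, SE 0.202, adjusted p = 0.930).

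Cd300lf, an immunoglobulin-type receptor gene also active in myeloid cells (ENSMUSG00000047798, chr11:115116214-115133992), was the only member whose groups did not overlap. It had 4.38, 4.80 and 4.62 CPM in WT and 2.64, 4.22 and 4.22 CPM in cKO (log2FC −0.32, SE 0.210, adjusted p = 0.733). All 3 cKO libraries were lower than all 3 WT libraries for 7.28% of all genes tested, and 1 of 31 members is a smaller share than that. The opposite order was seen in 0 members against 7.14% of all genes. Ffar3, a receptor for short-chain fatty acids (ENSMUSG00000019429, chr7:30854330-30856178), had 2.19, 2.83 and 2.33 CPM in WT and 2.37, 2.0 and 1.98 CPM in cKO, which overlapped (log2FC −0.21, SE 0.227, adjusted p = 0.857). Sucnr1, the succinate receptor whose promoter is printed above, had 3.97, 3.26 and 1.94 CPM in WT and 2.94, 3.54 and 2.56 CPM in cKO.

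In 6 of the 7 transduction genes, which carry the taste-type signal, library 3 was the lowest of its group in both genotypes. Rgs13 (ENSMUSG00000051079, chr1:144138654-144177372) had 24.01, 27.0 and 14.8 CPM in WT and 28.03, 27.0 and 15.3 CPM in cKO. Both libraries 3 stood well under the other four, and the genotype difference was small beside that gap (log2FC 0.09, SE 0.292, adjusted p = 0.965). Gng13 (ENSMUSG00000025739, chr17:25717171-25719406) had 15.7, 15.5 and 11.2 CPM in WT and 15, 16.7 and 10.0 CPM in cKO, again lowest in both libraries 3 (log2FC −0.03, SE 0.191, adjusted p = 0.987).

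Trpm5, the channel that depolarises the cell, was at 50.6, 47.7 and 27.1 CPM in WT and at 52.8, 52.98 and 27.0 CPM in cKO. Gnat3 was at 16.3, 18.5 and 8.0 CPM in WT and at 20.3, 23.8 and 11.0 CPM in cKO, with the widest highest-to-lowest ratio of the 31 members, 2.98. Plcb2, the phospholipase of the pathway, was at 32.0, 29.5 and 19.5 CPM in WT and at 35.9, 36.5 and 14.3 CPM in cKO. In these 3 genes, as in Lrmp, a membrane protein of the endoplasmic reticulum (41.1, 43.7 and 23.2 CPM in WT and 45.1, 49.8 and 20.7 CPM in cKO), library 3 of each genotype was below all 4 others. Itpr2, a calcium release channel expressed in many cell types, did not follow them: it had 51.6, 46.9 and 52.0 CPM in WT and 53.9, 55.6 and 48.0 CPM in cKO. Trpm5, Gnat3, Plcb2, Lrmp and Itpr2 are given in full here after their values were seen.

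The effector genes split in their behaviour between libraries. Il25, the cytokine gene (ENSMUSG00000040770, chr14:54932695-54935837), was near the bottom of the set with 1.13, 1.69 and 0.655 CPM in WT and 1.35, 1.46 and 1.70 CPM in cKO. Library 3 was its lowest in WT and its highest in cKO, and the groups overlapped (log2FC 0.38, SE 0.348, adjusted p = 0.828). Without both libraries 3 its log2 fold change was −0.00238. Chat had 3.92, 5.63 and 3.64 CPM in WT and 4.61, 5.74 and 3.10 CPM in cKO, with library 3 the lowest of each group.

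In the leukotriene branch, Alox5ap, which presents arachidonic acid to the lipoxygenase (ENSMUSG00000060063, chr5:149264767-149288153), had 9.51, 10.1 and 5.48 CPM in WT and 10.4, 10.3 and 5.08 CPM in cKO. Its partner Alox5, the lipoxygenase itself, had 20.03, 17.5 and 14.3 CPM in WT and 21.9, 20.7 and 9.18 CPM in cKO. Both were lowest in library 3 of each genotype, and the genotype difference of Alox5ap was close to 0 (log2FC 0.04, SE 0.307, adjusted p = 0.989). Ltc4s, the leukotriene synthase downstream (ENSMUSG00000020377, chr11:50236461-50238616), was lowest in library 3 in cKO but not in WT, with 6.78, 4.84 and 6.10 CPM in WT and 6.85, 6.09 and 5.30 CPM in cKO (log2FC 0.04, SE 0.180, adjusted p = 0.972). Ltc4s shares 26.4% of its exon bases with Gm26542 and Alox5ap shares 13.3% with Gm19719, so part of their reads could belong to those genes.

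In the prostaglandin branch, Hpgds, the haematopoietic prostaglandin D synthase (ENSMUSG00000029919, chr6:65117293-65144908), had 37.9, 34.9 and 33.2 CPM in WT and 34.4, 41.2 and 43.8 CPM in cKO. The groups overlapped, and library 3 was the lowest in WT and the highest in cKO (log2FC 0.17, SE 0.109, adjusted p = 0.717). Ptgs1, the constitutive cyclooxygenase that feeds it, had 18.5, 18.5 and 13.2 CPM in WT and 21.3, 22.9 and 15.5 CPM in cKO.

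Among the genes of the cytoskeleton, adhesion and neuronal type, Dclk1, a microtubule-binding kinase used as a tuft cell marker (ENSMUSG00000027797, chr3:55242364-55539068), had the smallest p of the 31 members. It had 57.8, 48.4 and 44.6 CPM in WT and 71.0, 63.8 and 46.5 CPM in cKO. Libraries 1 and 2 of cKO were above every WT library and library 3 of cKO was among the WT values (log2FC 0.27, SE 0.149, adjusted p = 0.680, unadjusted p = 0.0999). Avil (ENSMUSG00000025432, chr10:127000709-127020994) had 98.9, 80.3 and 64.1 CPM in WT and 90.6, 104 and 44.3 CPM in cKO, again lowest in both libraries 3 (log2FC −0.03, SE 0.361, adjusted p = 0.992). L1cam, a cell adhesion gene, was steadier, between 15.7 and 18.9 CPM, and Nrgn, which encodes a calmodulin-binding protein, lay between 3.88 and 5.69 CPM.

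The immune-type signalling genes encode adaptors, kinases and exchange factors that are also used in leukocytes. Vav1, a guanine nucleotide exchange factor (ENSMUSG00000034116, chr17:57279100-57328031), had the largest log2 fold change of the set and one of the widest spreads, with 18.6, 13.2 and 9.49 CPM in WT and 23.3, 22.2 and 9.34 CPM in cKO (log2FC 0.41, SE 0.408, adjusted p = 0.851). Its cKO library 3 was the lowest of all 6. Sh2d7, an SH2-domain adaptor gene (ENSMUSG00000046460, chr9:54534146-54545020), had 27.5, 21.96 and 14.1 CPM in WT and 26.8, 27.1 and 14.6 CPM in cKO (log2FC 0.11, SE 0.314, adjusted p = 0.961). Its relative Sh2d6 and the kinase gene Bmx showed the same shape, with Sh2d6 at 7.41 and Bmx at 10.5 CPM in WT library 3 and at 6.92 and 10.4 CPM in cKO library 3. Fyb, an adaptor gene also used in T cells (ENSMUSG00000022148, chr15:6522853-6663313), moved less, with 41.7, 51.2 and 41.1 CPM in WT and 45.3, 55.1 and 37.8 CPM in cKO (log2FC 0.04, SE 0.136, adjusted p = 0.963). Fyb shares 5.92% of its exon bases with Gm2245 (1110 to 1393 counts per library) and 4.29% with Gm7666 (2669 to 3208). Part of its reads could belong to those genes. Inpp5d, a lipid phosphatase gene, had 45.6, 53.7 and 42.2 CPM in WT and 49.7, 60.9 and 45.0 CPM in cKO. Fyb and Inpp5d were highest in library 2 and lowest in library 3 of both genotypes. Gnat3, Lrmp, Chat and Ptgs1 had that order as well, and so did the summed thymocyte genes described below. What this shared order comes from was not tested. Matk lay between 2.94 and 5.29 CPM.

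Gfi1b, a zinc finger repressor gene and the only nuclear member (ENSMUSG00000026815, chr2:28609450-28621982), had 6.502, 7.83 and 5.56 CPM in WT and 6.64, 8.52 and 8.34 CPM in cKO. The groups overlapped, and library 3 was low in WT but not in cKO (log2FC 0.24, SE 0.175, adjusted p = 0.756). Pou2f3, the regulator outside the set, had 44.7, 40.8 and 32.0 CPM in WT and 39.8, 45.8 and 30.2 CPM in cKO (log2FC −0.02, SE 0.157, adjusted p = 0.988).

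**Figure D3:**
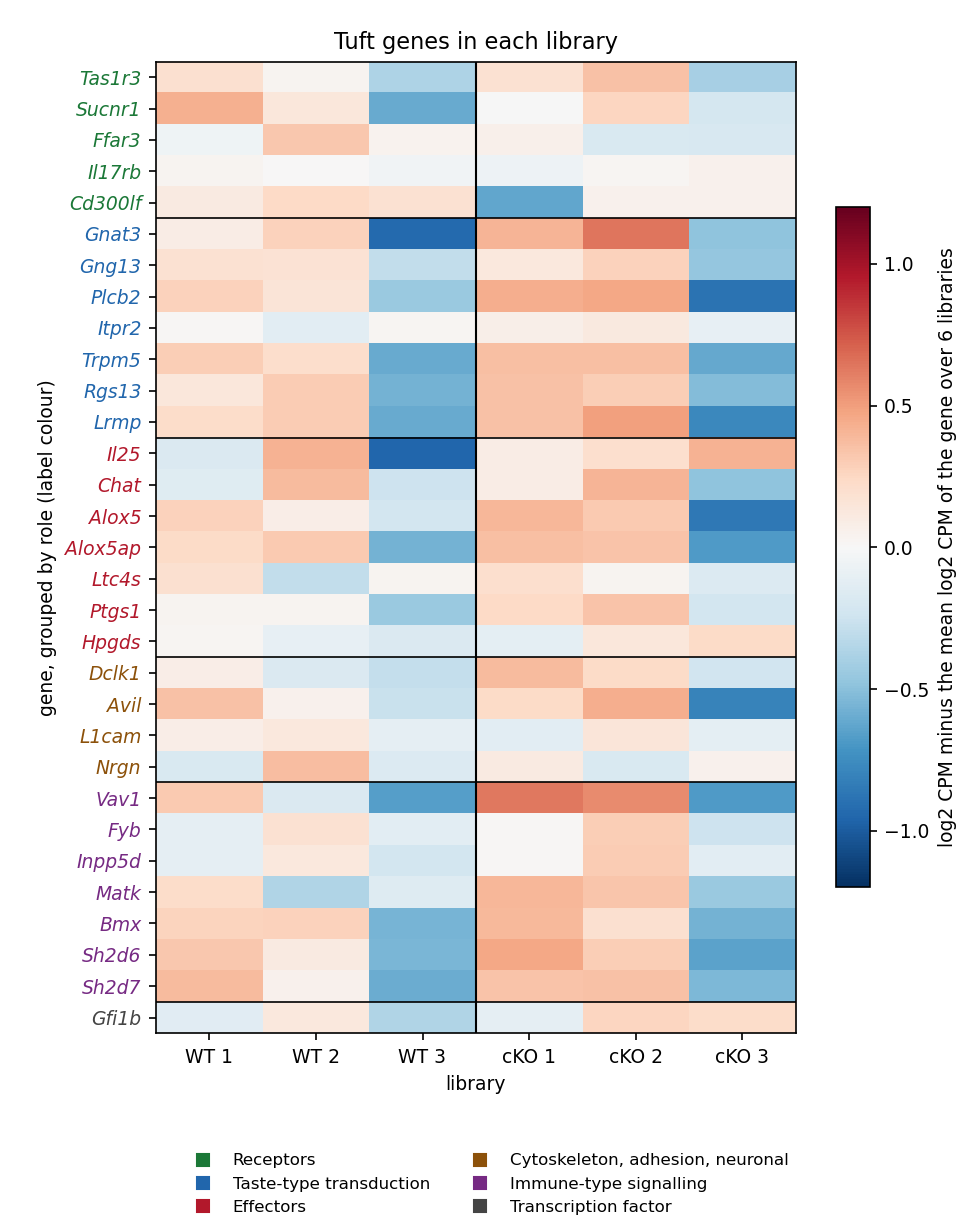
Level of each tuft gene in each library as log2 CPM minus the gene's mean over 6 libraries (colour), with genes grouped by role and the vertical line between genotypes. The columns of WT library 3 and cKO library 3 are blue for most rows, and Il17rb, Itpr2 and Cd300lf are among the rows that are not.

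Across the set, the larger contrast was between libraries of the same genotype. Library 3 was the lowest of its genotype in both groups for 20 of the 31 members, against 12.8% of all genes tested. WT library 3 was the lowest WT library for 25 members (31.3% of all genes), and cKO library 3 was the lowest cKO library for 24 members (34.9% of all genes). Against the mean of libraries 1 and 2, the median member was 28% lower in WT library 3 and 36.7% lower in cKO library 3, beside 0.36% and 0.35% lower for the median of all genes. This pattern was noticed in the data, has no test, and describes these 6 libraries.

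By role, the summed transduction genes were 32.3% lower in WT library 3 and 43.0% lower in cKO library 3 than in libraries 1 and 2 of the same genotype. For the immune-type signalling genes the gaps were 25.3% and 34.3%, for the cytoskeletal and adhesion genes 22.4% and 40.4%, for the effectors 19.8% and 19.9%, and for the receptors 15.4% and 11.3%. The order of the roles depends on summing, in which abundant genes such as Avil weigh most. The median gene was 42.0% and 49.0% lower for transduction, 40.3% and 44.8% for immune-type signalling, 16.7% and 20.1% for the cytoskeletal and adhesion genes, 23.97% and 29.9% for the effectors, and 7.15% and 9.37% for the receptors. In 10 members both libraries 3 were more than 30% below, against 2.16% of all genes. These 10 were Trpm5, Gnat3, Plcb2, Lrmp, Rgs13, Alox5ap, Vav1, Bmx, Sh2d6 and Sh2d7, of which 5 are transduction genes and 4 immune-type signalling genes. The 11 members in which library 3 was not the lowest in both groups were Cd300lf, Ffar3, Gfi1b, Hpgds, Il17rb, Il25, Itpr2, L1cam, Ltc4s, Matk and Nrgn.

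**Figure D4:**
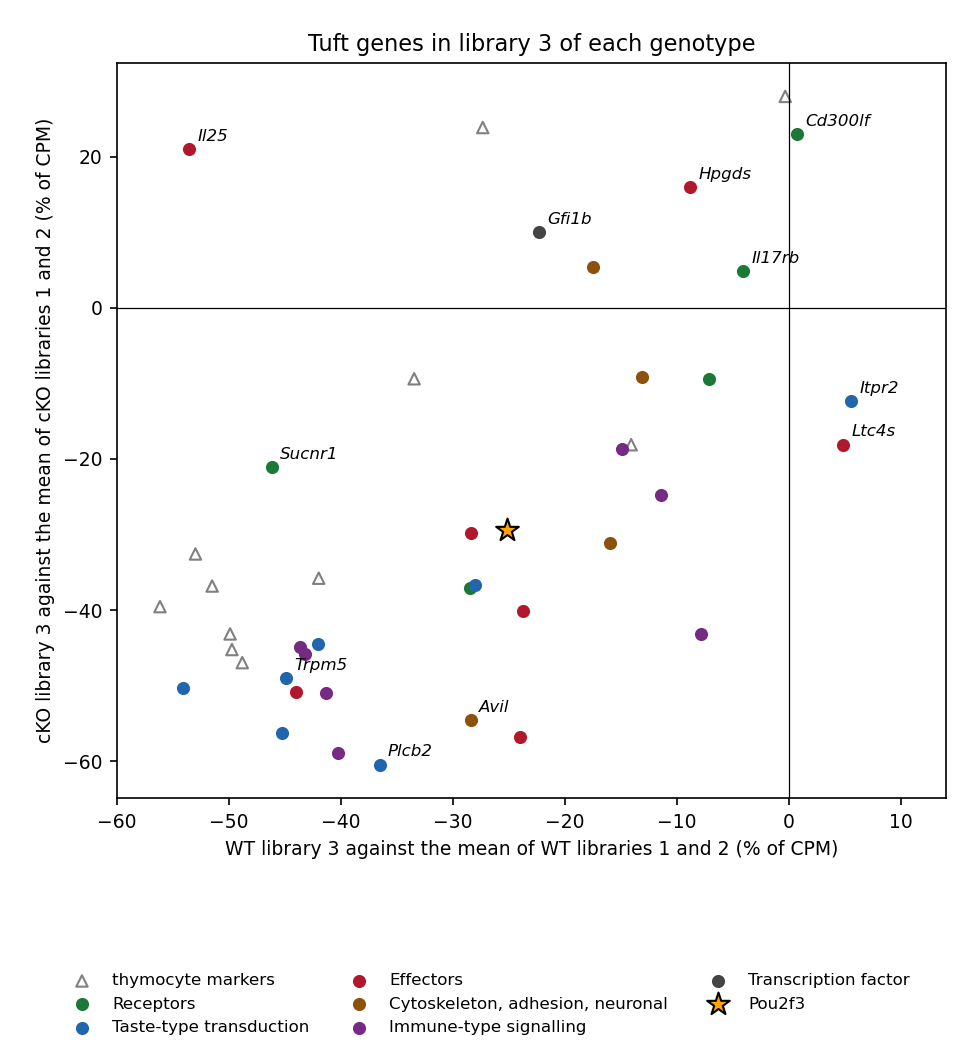
Percent difference of library 3 from the mean of libraries 1 and 2, in CPM, for WT (horizontal) and cKO (vertical). Points are tuft genes coloured by role, the star is Pou2f3 and open triangles are thymocyte markers. Trpm5 lies at −44.9% and −49.0%, Pou2f3 at −25.2% and −29.4%, and Il25 at −53.6% in WT and 20.97% in cKO.

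Pou2f3 was low in the same libraries, 25.2% below libraries 1 and 2 in WT and 29.4% below in cKO. Markers of other cells were measured for comparison. The 11 thymocyte genes were also low in library 3, with summed levels of 119, 170 and 87.4 CPM in WT and 103, 158 and 91.3 CPM in cKO. That was 39.5% and 29.9% below libraries 1 and 2, and 8 of the 11 were lowest in both libraries 3. Library 2 was the highest WT library for 11 of 11 thymocyte genes and for 15 of 31 tuft genes (33.8% of all genes). It was the highest cKO library for 10 of 11 and 16 of 31 (31.3% of all genes). In cKO the summed levels of both lists were highest in library 2, then library 1, then library 3. In WT the thymocyte sum had that order too, while the tuft sum was highest in library 1. Ptprc, the common leukocyte marker, had 18.1, 24.9 and 12.5 CPM in WT and 15.7, 24.8 and 13.0 CPM in cKO. No defining thymocyte marker was at 0 in any library. The part of these cells in the tuft gene pattern was not tested.

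The summed levels of other marker lists were not lower in both libraries 3. Summed myeloid markers were 7.11% higher in WT library 3 and 35.1% higher in cKO library 3 than in libraries 1 and 2, and mast cell and basophil markers were 7.09% and 0.0118% higher. The mast cell and basophil sum is mostly Hdc: the median gene of that list was 15.8% and 35.9% higher, while Kit was low in both libraries 3 (113, 114 and 92.5 CPM in WT and 128, 123 and 88.7 CPM in cKO). Megakaryocyte and platelet markers were 19.5% and 32.3% higher, erythroid markers 7.56% and 33.1% higher, and fibroblast and endothelial markers 20.6% and 22.2% higher. B cell markers were 0.272% lower in WT library 3 and 19.7% higher in cKO library 3. Summed markers of mature medullary epithelium were 3.20% and 5.04% higher. Markers of cortical epithelium were 8.35% lower and 0.118% higher, and among them Psmb11 and Prss16 were low in both libraries 3, with Prss16 at 53.8, 61.6 and 36.7 CPM in WT and at 48.8, 64.7 and 37.8 CPM in cKO. Library 3 had the highest total count of its genotype in both groups. Why most tuft genes were lower there was not tested.

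The other genes of the tuft pathways were examined from lists of 76 genes outside the set, of which 73 passed the filter on low counts. With edgeR 0 of the 73 passed the threshold and 5 had an unadjusted p under 0.05, beside 8.51% of all genes. DESeq2 called 0 of the 64 genes for which it gave an adjusted p. Of the 76 genes, 3 had a DESeq2 unadjusted p under 0.05. Over the whole series 2433 genes did, and DESeq2 gave 22340 genes an adjusted p. The 2433 may include genes without an adjusted p, so no share is given. Limma on log2(TPM + 1) called 0 of 74 with 1 unadjusted, beside 7.13% of all genes. Among the 18 tested genes of the taste pathway, Itpr1, a calcium release channel gene, had the smallest p, with 18.5, 20.1 and 21.1 CPM in WT and 24.5, 24.3 and 26.4 CPM in cKO (log2FC 0.33, SE 0.107, adjusted p = 0.409). Its groups did not overlap, which held for 14.4% of all genes. Among the 10 acetylcholine genes it was Slc18a3, the vesicular acetylcholine transporter gene that lies within Chat, with 2.69, 3.28 and 5.28 CPM in WT and 1.86, 2.39 and 2.48 CPM in cKO (log2FC −0.74, SE 0.265, adjusted p = 0.467). Chat itself had a log2 fold change of 0.03 (SE 0.246).

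In the other 3 lists the smallest p belonged to Il17ra, the shared interleukin 17 receptor subunit (log2FC −0.20, SE 0.0884, adjusted p = 0.576), to Hpgd, which degrades prostaglandins (0.25, SE 0.110, adjusted p = 0.580), and to Nfatc1, a calcium-regulated transcription factor gene (0.19, SE 0.102, adjusted p = 0.654). Gnb3, the beta subunit that partners gustducin, had 33.9, 29.6 and 18.6 CPM in WT and 32.7, 30.05 and 15.2 CPM in cKO, low in library 3 like the member transduction genes. Tas2r108, a bitter taste receptor gene, was also low there, at 0.921 CPM in WT library 3 and 1.68 CPM in cKO library 3 beside 2.71 to 3.83 CPM in the other libraries. Gnb3 and Tas2r108 were named after their values were seen. Their whole list of 21 other taste pathway genes summed to 2.87% less in WT library 3 and 5.07% less in cKO library 3 than in libraries 1 and 2. The median tested gene of that list was 21.2% and 16.4% lower. Of its 18 tested genes, 6 were lowest in both libraries 3, against 12.8% of all genes. The 20 other eicosanoid genes summed to 0.519% less in WT library 3 and 9.95% more in cKO library 3 than in libraries 1 and 2. Ptgs2 weighs most in these sums, with 786 to 1100 CPM per library in sums of 2040 to 2420 CPM. The median gene of this list was 1.59% higher in WT library 3 and 2.14% higher in cKO library 3.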

How the data were processed

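Bulk mRNA libraries of sorted medullary thymic epithelial cells, 3 WT and 3 cKO, were compared. TopHat2 2.1.1, SAMtools 1.9, Subread 2.0.1 and the build mm10 are named in the submitters' processing notes. The deposited files hold raw counts per gene, made per the file headers with featureCounts 2.0.0 on Ensembl release 99 of GRCm38, unstranded, with reads that overlap several genes counted for each, mates counted singly and multi-mapping reads left out. The authors' series table adds TPM values, made by the authors from these counts. It repeats the counts of 51810 genes exactly, and 1 further column of per-sample values was not used.

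Counts were tested with edgeR 4.0.16 in R 4.3.3 (TMM, filterByExpr, robust quasi-likelihood fit), cKO over WT, adjusted by Benjamini-Hochberg over 28543 genes at a threshold of 0.05. The SE was taken as log2 fold change over √F. CPM is TMM scaled. DESeq2 1.42.0, limma 3.58.1 on log2(TPM + 1) or log2(TPM + 0.1), other filters and each library left out were alternatives. Scripts were tested on simulated data. Intervals at 95% use the fitted spread, and floors of 3 counts cover counting error only. No libraries of a group agreed within sampling noise (chi-square per gene 13.4 to 23.5), so all 6 were kept.

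The members and lists were chosen with earlier results of these data known. Members given in full had the 3 smallest p, the 2 largest rises, the 2 largest falls or the 2 highest mean TPM of their role; pathway genes had the smallest p of their list. Values of the remaining members were added after they were seen.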

Additional observations from a re-analysis of the deposited data

How the results depend on the processing

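The count of tuft genes past the threshold was 0 under all 9 other settings (the replicate block, DESeq2, DESeq2 size factors in edgeR, no filter, a 1 CPM filter, a fit that is not robust, series table genes only, and limma with either pseudocount), without each of the 6 libraries in turn, and without both libraries 3, a setting chosen after seeing the data. The count of pathway genes was 0 throughout as well. An unadjusted p under 0.05 was found for 3 tuft genes without both libraries 3 (6.63% of all genes), for 4 without cKO library 3 (10.8%), and for 1 each without WT library 1 (9.25%) and without cKO library 1 (8.34%). The count over all genes was 17. It became 203 with the replicate block, 175 with DESeq2, 160 with no filter, 6 without the robust fit, 1 with limma at either pseudocount, 5 without both libraries 3, and 5 to 16 over all settings that leave libraries out. The cause was not tested.

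The replicate numbers were not taken as pairs: same-numbered libraries correlated at 0.0544 to 0.113 in their deviations from the group means, not all above 0.1, although 6 of 6 libraries correlated best with their own number. With the replicate block 0 tuft genes passed the threshold and 4 had an unadjusted p under 0.05, Gnat3, Ptgs1, Dclk1 and Vav1, all higher in cKO, beside 11.8% of all genes in the same fit. The median log2 fold change of the tuft genes was 0.06 with the block.

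For the 16 tuft genes given in full, 144 of 144 values under the 9 settings kept their direction and 0 passed the threshold. With libraries left out, 84 of 112 kept it and 28 reversed, and 0 passed the threshold. The log2 fold changes then ranged from −0.19 to 0.31 for Alox5ap, −0.27 to 0.26 for Avil, −0.10 to 0.17 for Fyb, −0.18 to 0.16 for Gng13, −0.0347 to 0.0410 for Il17rb, −0.00238 to 0.76 for Il25, −0.0834 to 0.16 for Ltc4s, −0.12 to 0.33 for Rgs13, −0.12 to 0.35 for Sh2d7 and −0.0491 to 0.30 for Tas1r3. The median over the 31 genes ranged from −0.09 to 0.26 and the log2 ratio of their summed CPM from −0.03 to 0.28. Leaving out 1 library leaves 3 against 2. Counts per tuft gene and library were 32 or more.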

Other observations

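A list of 15 regulators of mimetic cells holds Pou2f3 and 14 other genes. Of the 15, 0 passed the threshold between cKO and WT with edgeR (0.0596% of all genes), and 2 had an unadjusted p under 0.05 (8.51% of all genes). Myog, a muscle regulator, had 15.1, 8.46 and 12.4 CPM in WT and 22.4, 15.4 and 15.9 CPM in cKO (log2FC 0.58, SE 0.208, adjusted p = 0.481). Sox8, tied to microfold cells, had 16.4, 16.6 and 13.6 CPM in WT and 20.8, 23.7 and 16.7 CPM in cKO (log2FC 0.39, SE 0.144, adjusted p = 0.479). In both genes the groups did not overlap, which held for 14.4% of all genes. All 3 cKO libraries were higher than all 3 WT libraries for 3 of the 15, against 7.14% of all genes. The opposite order was seen for 0 of the 15, against 7.28% of all genes. Library 3 was the lowest of its genotype in both groups for 5 of the 15, Pou2f3, Spib, Sox8, Foxa2 and Foxi1, against 12.8% of all genes. Summed over the 15, Pou2f3 included, library 3 was 2.83% higher than libraries 1 and 2 in WT and 12.3% lower in cKO. Spib weighs most in these sums, with 525 to 626 CPM per library in sums of 1068 to 1219 CPM. The median gene of the list was 2.89% lower in WT library 3 and 11.7% lower in cKO library 3.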
